A study of Mus musculus with 4 samples.

Results

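BCL2 family transcripts were followed in CD4+Foxp3+ regulatory T cells (Tregs) of Csnk2b-deficient and WT mice. The genes are Bcl2, Bcl2l1, Mcl1, Bax, Bak1, Bcl2l11, Bbc3, Bid and Bad, which were taken by name. All 9 were among the 28032 features with an exon length, and all 9 passed the filter on low counts. The Csnk2b-deficient group (genotype label Csnk2b-/-; the gene encodes the beta, regulatory subunit of the kinase CK2) and the WT group were both C57BL/6 mice aged 8 weeks, and each had 1 library of spleen Tregs (replicate 1) and 1 of tracheal lymph node Tregs (replicate 2). How and in which cells the gene was deleted, and whether a library came from 1 mouse or a pool, is not stated in the labels. Each genotype thus had 2 libraries, 1 of each tissue. The spread behind each p-value and SE is the disagreement of the spleen and lymph node pairs, shrunk towards that of other genes.

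The BCL2 family sets the threshold of mitochondrial apoptosis. Survival proteins (BCL2, BCL-XL and MCL1) hold the pore-forming effectors BAX and BAK and the BH3-only proteins in check, and BH3-only proteins (BIM, PUMA, BID and BAD) bind the survival proteins through a short helix, the BH3 domain, and so free the effectors to open the outer mitochondrial membrane. In T cells, MCL1 and BIM are central to Treg number, and interleukin-2 and interleukin-7 signals are known to raise survival members.

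The BH3 core is shown because all 9 genes have it in common, and BH3-only proteins bind the survival proteins through the domain that holds it. The lines give the coding strand 5′ to 3′ from the GENCODE M21 transcripts (GRCm38), 45 bases each. Capitals mark the 6 codons of the core, which starts with leucine, ends with aspartate and has a small residue before it.
Bcl2: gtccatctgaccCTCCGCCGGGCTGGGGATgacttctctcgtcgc
Bcl2l1: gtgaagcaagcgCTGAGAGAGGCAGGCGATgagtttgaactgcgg
Mcl1: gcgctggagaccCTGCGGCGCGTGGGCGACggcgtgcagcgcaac
Bax: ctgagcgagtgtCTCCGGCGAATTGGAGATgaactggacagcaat
Bak1: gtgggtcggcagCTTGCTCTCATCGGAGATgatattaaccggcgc
Bcl2l11: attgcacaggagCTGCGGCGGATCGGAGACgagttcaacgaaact
Bbc3: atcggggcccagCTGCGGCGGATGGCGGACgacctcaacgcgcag
Bid: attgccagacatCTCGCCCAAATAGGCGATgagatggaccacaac
Bad: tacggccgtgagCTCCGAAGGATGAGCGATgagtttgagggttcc
The small residue was glycine in 7 genes, alanine in Bbc3 and serine in Bad. Each of the 9 proteins held the core at 1 place, and 33.8% of 21763 mouse proteins hold such a 6-residue match somewhere, so the match alone does not mark the family. In each gene the stretch lay within a single exon. For Bcl2 it was exon 1 of 2 (minus strand, chr1:106712569-106712613), and for Bcl2l11 it was exon 3 of 4 (plus strand, chr2:128147138-128147182). It was exon 1 of 3 in Mcl1, exon 2 of 3 in Bcl2l1, exon 3 of 6 in Bax, exon 4 of 6 in Bak1 and Bid, and exon 3 of 4 in Bbc3 and Bad.

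Exon reads numbered between 4737814 and 6750695 per library, with reads in 12157 genes in WT lymph node Tregs, the fewest, and in 14335 to 15515 genes in the other libraries. Csnk2b had 25.6 CPM (exon reads as CPM with TMM scaling) in Csnk2b-deficient and 82.3 in WT spleen Tregs, and 62.0 in Csnk2b-deficient and 163 in WT lymph node Tregs (log2 fold change -1.54 ± 0.26, edgeR adjusted p = 0.0658; DESeq2 and limma-voom called it lower). All 7 genes of the Treg marker list had reads in every library. The list holds Cd4 and Cd3e, which other CD4 T cells also express, so its sum does not measure Treg content. No marker of conventional CD4 T cells was listed. The 7 genes summed to 3699 CPM in Csnk2b-deficient and 4200 CPM in WT spleen Tregs, and to 6367 CPM in Csnk2b-deficient and 6477 CPM in WT lymph node Tregs. Foxp3, the defining Treg factor, had 374 CPM in Csnk2b-deficient and 811 CPM in WT spleen Tregs, and 123 CPM in Csnk2b-deficient and 570 CPM in WT lymph node Tregs. The other genes of this list were mixed. In the lymph node Il2ra had 1119 CPM in Csnk2b-deficient and 984 CPM in WT Tregs, and Ctla4 had 725 CPM in Csnk2b-deficient and 695 CPM in WT Tregs. Tnfrsf18 and Cd4 were also higher there in the Csnk2b-deficient library. Ikzf2 (1277 CPM in Csnk2b-deficient and 1359 in WT) and Cd3e (967 and 1109) were lower. In the spleen Il2ra (509 CPM in Csnk2b-deficient and 599 in WT), Ctla4 (387 and 506), Tnfrsf18 and Cd3e were lower. Ikzf2 and Cd4 were higher there. In the lymph node libraries, 4 myeloid markers summed to 294 CPM in Csnk2b-deficient and 46.2 CPM in WT Tregs, nearly all of it Lyz2, beside 6.57 CPM in Csnk2b-deficient and 9.77 CPM in WT spleen Tregs. The 4 B cell markers summed to 98.7 CPM in Csnk2b-deficient and 148 CPM in WT lymph node Tregs, and to 17.0 CPM in Csnk2b-deficient and 15.6 CPM in WT spleen Tregs. The 2 CD8 T cell markers summed to 12.5 to 52.5 CPM over the libraries, 2 dendritic cell markers to at most 0.658 CPM, and 2 NK cell markers to at most 7.02 CPM, with Ncr1 at 0 in each library. The 2 plasma cell markers summed to 36.2 CPM in Csnk2b-deficient lymph node Tregs and to at most 1.38 CPM in the others, and 3 erythroid markers to 41.8 CPM in WT lymph node Tregs and at most 3.95 CPM in the others. The part of these cells in the lymph node results was not tested. In such bulk samples, fewer cells of a type and less RNA per cell cannot be told apart.

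Levels were compared between genes per kilobase of exon (CPM per kb). Mcl1 was the most abundant member in each of the 4 libraries, at 159 CPM per kb in Csnk2b-deficient and 188 in WT spleen Tregs, and at 86.8 in Csnk2b-deficient and 130 in WT lymph node Tregs. It lay above 91.5% to 98.4% of the genes tested. Bax and Bcl2 took the next ranks in each library, with Bax above Bcl2 in both spleen libraries and Bcl2 above Bax in both lymph node libraries. Below them the order was not stable. In WT spleen Tregs Bbc3, Bid, Bcl2l1 and Bak1 lay between 10.2 and 11.0 CPM per kb, and in Csnk2b-deficient spleen Tregs the same genes lay between 7.82 and 15.5. Bcl2l11 and Bad were the 2 lowest members in both spleen libraries.

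**Figure D1:**
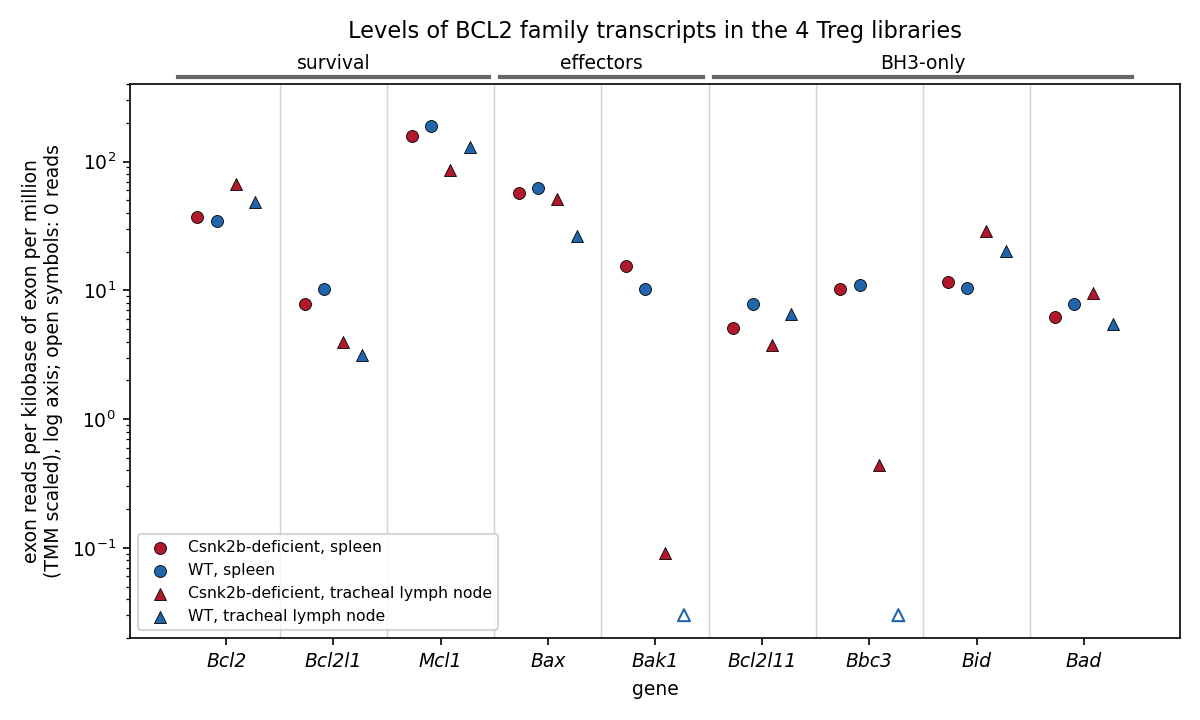
Exon CPM per kilobase of exon (log axis) of the 9 members in each library, Csnk2b-deficient libraries in red and WT libraries in blue, circles for spleen and triangles for lymph node; open symbols at the bottom edge stand for 0 reads. Mcl1 was highest in each library (86.8 to 188), and Bak1 and Bbc3 were at or near 0 in both lymph node libraries only.

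Among the survival members, Bcl2, the founding survival gene, had slightly more reads in Csnk2b-deficient Tregs of both tissues and Mcl1 fewer, while Bcl2l1 went opposite ways; no difference passed the test. Bcl2 (chromosome 1, 108434755 to 108610851, mm9) had 268 CPM in Csnk2b-deficient and 248 CPM in WT spleen Tregs, and 485 CPM in Csnk2b-deficient and 347 CPM in WT lymph node Tregs. The ratio was 1.08 in the spleen (95% exact counting interval 1.01 to 1.16) and 1.40 in the lymph node (1.31 to 1.50). The intervals cover counting error only, with each read taken as independent. Jointly the log2 fold change came to 0.30 ± 0.20 (SE, n = 2 per genotype; edgeR adjusted p = 0.890). When reads over the whole gene were counted, introns included, the Bcl2 value was -0.0079 ± 0.16 (edgeR adjusted p = 0.994). Exon reads with 1 placement made up 80.8% of the Bcl2 exon reads in Csnk2b-deficient and 81.6% in WT spleen Tregs, and 50.0% in Csnk2b-deficient and 55.1% in WT lymph node Tregs.

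Mcl1 (chromosome 3, 95462643 to 95467099), which encodes a short-lived survival protein, had 554 CPM in Csnk2b-deficient and 657 CPM in WT spleen Tregs, and 303 CPM in Csnk2b-deficient and 452 CPM in WT lymph node Tregs. The Csnk2b-deficient library was thus the lower one in each tissue. The ratio was 0.844 in the spleen (95% exact counting interval 0.808 to 0.882) and 0.670 in the lymph node (0.624 to 0.719). The joint fit gave -0.41 ± 0.19 on the log2 scale (SE, 2 libraries per genotype), with an unadjusted p of 0.0506 and an adjusted p of 0.890 in edgeR.

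Bcl2l1 (chromosome 2, 152593052 to 152657464), the gene of BCL-XL, had 37.0 CPM in Csnk2b-deficient and 49.0 CPM in WT spleen Tregs, and 18.9 CPM in Csnk2b-deficient and 14.9 CPM in WT lymph node Tregs. The spleen ratio was 0.756 (95% exact counting interval 0.637 to 0.896). The lymph node ratio was 1.26 and its interval of 0.900 to 1.79 included 1, from 86 Csnk2b-deficient and 61 WT reads. Its joint log2 fold change came to -0.05 ± 0.39 (SE, n = 2 per genotype; edgeR adjusted p = 0.992).

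Of the effectors, Bax was near equal between genotypes in the spleen and higher in the Csnk2b-deficient library in the lymph node, and Bak1 had more than 1 read in the spleen alone; neither difference passed the test. Bax (chromosome 7, 52717065 to 52722268), whose product moves to mitochondria on activation, had 75.9 CPM in Csnk2b-deficient and 83.1 CPM in WT spleen Tregs, with a ratio of 0.914 (95% exact counting interval 0.808 to 1.03). In the lymph node it had 68.8 CPM in Csnk2b-deficient and 35.2 CPM in WT Tregs, a ratio of 1.96 (1.60 to 2.40). The WT lymph node library was the low one of the 4, and the other 3 lay between 68.8 and 83.1 CPM. Reads across splice junctions, a part of the Bax exon reads, numbered 145 in Csnk2b-deficient and 186 in WT spleen Tregs, and 111 in Csnk2b-deficient and 59 in WT lymph node Tregs. Its joint log2 fold change came to 0.40 ± 0.32 (SE, n = 2 per genotype; edgeR adjusted p = 0.895).

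Bak1 (chromosome 17, 27156755 to 27165954), the effector that resides on mitochondria, had 216 exon reads in Csnk2b-deficient and 193 in WT spleen Tregs, and 1 read in Csnk2b-deficient and 0 in WT lymph node Tregs. In the spleen this was 37.4 CPM in Csnk2b-deficient and 24.5 CPM in WT, a ratio of 1.53 (95% exact counting interval 1.25 to 1.86). No ratio was formed in the lymph node, where both libraries were under the limit of 3 reads that a count of 0 allows. Uniquely placed reads were 25.9% of the Bak1 exon reads in Csnk2b-deficient and 23.8% in WT spleen Tregs. The span of Bak1 lies within that of Ggnbp1 (27110162 to 27173323), so its count is uncertain. Reads across Bak1 splice junctions numbered 57 in Csnk2b-deficient and 50 in WT spleen Tregs. The joint log2 fold change of 0.74 ± 0.70 (SE, n = 2 per genotype; edgeR adjusted p = 0.895) thus rests on the spleen.

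Among the BH3-only genes, Bcl2l11 was lower in the Csnk2b-deficient library of both tissues, Bid was higher in both, and Bad and Bbc3 went opposite ways; none passed the test. Bcl2l11 (chromosome 2, 127951774 to 127988283), the gene of BIM, had 237 exon reads or 41.0 CPM in Csnk2b-deficient and 496 reads or 62.9 CPM in WT spleen Tregs. Lymph node Tregs had 138 reads or 30.3 CPM in Csnk2b-deficient and 215 reads or 52.5 CPM in WT. The ratio was 0.652 in the spleen (95% exact counting interval 0.556 to 0.762) and 0.576 in the lymph node (0.461 to 0.716). Both Csnk2b-deficient libraries lay below both WT libraries, and all Bcl2l11 exon reads were uniquely placed. The joint fit gave -0.70 ± 0.32 on the log2 scale (SE, 2 libraries per genotype), with an unadjusted p of 0.0485 and an adjusted p of 0.890 in edgeR. Reads outside the Bcl2l11 exons, which the exon counts do not include, were 51 in Csnk2b-deficient and 108 in WT spleen Tregs, and 71 in Csnk2b-deficient and 111 in WT lymph node Tregs. Their ratios were 0.644 in the spleen (95% exact counting interval 0.452 to 0.907) and 0.574 in the lymph node (0.420 to 0.780), close to those of the exon reads.

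Bid (chromosome 6, 120841948 to 120866871), which couples death receptors to mitochondria once a caspase cuts its product, had 41.7 CPM in Csnk2b-deficient and 37.4 CPM in WT spleen Tregs, and 103 CPM in Csnk2b-deficient and 71.9 CPM in WT lymph node Tregs. The ratio was 1.11 in the spleen (95% exact counting interval 0.936 to 1.33) and 1.44 in the lymph node (1.24 to 1.67). Its log2 fold change came to 0.34 ± 0.28 (SE, n = 2 per genotype; edgeR adjusted p = 0.895). The end of Bid overlaps Bcl2l13 (120786248 to 120842860), and 86.4% to 96.2% of Bid exon reads were uniquely placed. The BID protein is itself a known CK2 substrate in the mouse, a property that RNA reads do not measure.

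Bad (chromosome 19, 7016351 to 7026388), whose product is held inactive by phosphorylation, had 12.5 CPM in Csnk2b-deficient and 15.9 CPM in WT spleen Tregs, and 19.3 CPM in Csnk2b-deficient and 11.0 CPM in WT lymph node Tregs. The spleen ratio was 0.786 (95% exact counting interval 0.579 to 1.06) and the lymph node ratio 1.75 (1.21 to 2.57). Bad had few exon reads, 45 to 125 per library. The span of Bad overlaps that of Gpr137 (7012559 to 7016940), and 88.9% to 100% of Bad exon reads were uniquely placed. Bbc3 (chromosome 7, 16894965 to 16903554), the p53-induced gene of PUMA, had 119 reads or 20.6 CPM in Csnk2b-deficient and 174 reads or 22.1 CPM in WT spleen Tregs, a ratio of 0.933 (95% exact counting interval 0.732 to 1.18). In the lymph node it had 4 reads in Csnk2b-deficient and 0 in WT Tregs, too few to show a difference. The log2 fold changes were 0.22 ± 0.57 for Bad and 0.57 ± 0.89 for Bbc3 (SE, n = 2 per genotype; edgeR adjusted p = 0.965 and 0.940).

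**Figure D2:**
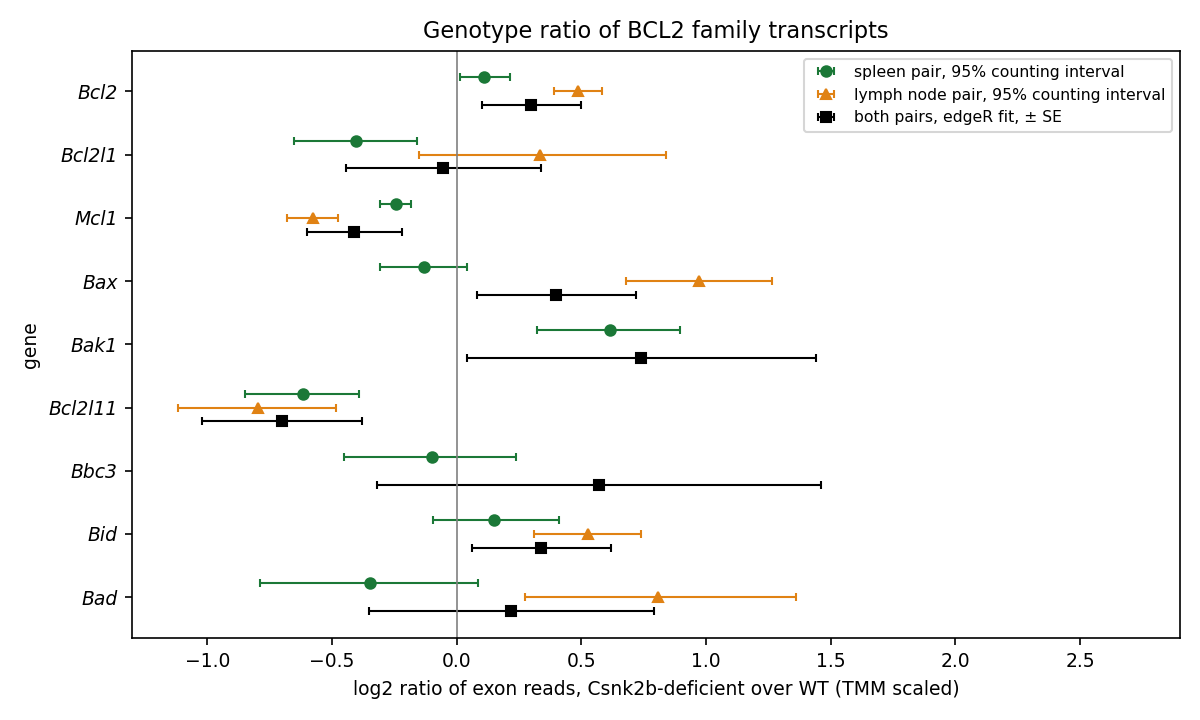
Log2 ratio of exon reads, Csnk2b-deficient over WT, for each member: circles are the spleen pair and triangles the lymph node pair, each with its 95% exact counting interval, and squares are the joint edgeR fit with its SE. Bcl2l11 and Mcl1 lay left of 0 and Bcl2 right of 0 in both tissues with both intervals off 0, and no lymph node ratio is drawn for Bak1 and Bbc3.

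Over the 9 members edgeR called 0 higher and 0 lower at an adjusted p below 0.05, and DESeq2 and limma-voom also called 0. Among all 11113 genes tested 0.144% were called, 0.126% higher and 0.0180% lower. At an unadjusted p below 0.05 edgeR had 1 member, Bcl2l11, compared with 4.88% of all genes. Bcl2, Bak1 and Bid had the higher value in the Csnk2b-deficient library of both tissues, a direction 27.7% of all genes had, and Mcl1 and Bcl2l11 the lower value in both, as did 29.2%. The Bak1 direction in the lymph node rests on 1 read. In the spleen pair the counting interval left out 1 for 2 members that were higher (Bcl2 and Bak1; 13.2% of all genes) and 3 that were lower (Bcl2l1, Mcl1 and Bcl2l11; 15.8%), together 5 of 9 beside 29.0% of all genes. In the lymph node pair it did so for 4 members that were higher (Bcl2, Bax, Bid and Bad; 32.9% of all genes) and 2 that were lower (Mcl1 and Bcl2l11; 30.6%), together 6 of 9 beside 63.5%. The share of members in the lymph node pair was thus near that of all genes. The counting intervals of Bcl2, Mcl1 and Bcl2l11 left out 1 in both tissues in the same direction, 3 of 9 members compared with 14.7% of all genes. The Bcl2 interval in the spleen began at 1.01. Whether an interval leaves out 1 depends on the number of reads, which was high for Mcl1 and Bcl2. All genes are thus not a background matched on reads, and nothing is read from these shares. The median log2 fold change was 0.22 over the 7 members counted in each tissue, and 0.0087 over all genes tested. A value that misses the threshold here does not show that a transcript was equal, since SEs ran from 0.19 to 0.89 on the log2 scale.

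Survival members were then set against death members within each library, as ratios per kilobase that need no scaling between libraries. With 2 libraries against 2, a two-sided exact permutation test that ignores the tissue pairing cannot go below p = 0.333. Keeping the pairing raises that limit, so these ratios are a description. The 3 survival members summed to 1.93 times the 6 death members in Csnk2b-deficient and 2.13 times in WT spleen Tregs. For the lymph node it was 1.68 in Csnk2b-deficient and 3.09 in WT Tregs. The Csnk2b-deficient library was lower in each tissue, by little in the spleen. The lymph node survival sum was 158 CPM per kb in Csnk2b-deficient and 181 in WT Tregs, and the death sum was 94.4 CPM per kb in Csnk2b-deficient and 58.6 in WT Tregs. Bax made up 51.4 CPM per kb of the Csnk2b-deficient and 26.3 CPM per kb of the WT death sum. With Mcl1 left out of the survival sum the ratio was 0.427 in Csnk2b-deficient and 0.409 in WT spleen Tregs, and 0.756 in Csnk2b-deficient and 0.877 in WT lymph node Tregs, so the direction in the spleen turned round.

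Single pairs of members differed from the sum. Of 18 pairs of a survival and a death member, 12 had more than 3 reads of each in every library. The 3 pairs with a higher ratio in Csnk2b-deficient Tregs of both tissues all had Bcl2l11 as the death member. Bcl2 exceeded Bcl2l11 by 7.29 times per kilobase in Csnk2b-deficient and 4.40 times in WT spleen Tregs, and by 17.9 times in Csnk2b-deficient and 7.36 times in WT lymph node Tregs. For Mcl1 over Bcl2l11 the ratio was 31.2 in Csnk2b-deficient and 24.1 in WT spleen Tregs, and 23.0 in Csnk2b-deficient and 19.8 in WT lymph node Tregs. For Bcl2l1 over Bcl2l11 it was 1.53 in Csnk2b-deficient and 1.32 in WT spleen Tregs, and 1.06 in Csnk2b-deficient and 0.481 in WT lymph node Tregs. In 6 pairs the ratio was lower in Csnk2b-deficient Tregs of both tissues, including each of the 3 survival members over Bid. Bcl2 over Bid was nearly equal between genotypes, at 3.17 in Csnk2b-deficient and 3.27 in WT spleen Tregs. In the lymph node it was 2.32 in Csnk2b-deficient and 2.38 in WT Tregs. Mcl1 over Bid was 13.5 in Csnk2b-deficient and 17.9 in WT spleen Tregs, and 2.98 in Csnk2b-deficient and 6.40 in WT lymph node Tregs. The other 3 pairs had opposite directions. These pairs share members and so are not separate observations.

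**Figure D3:**
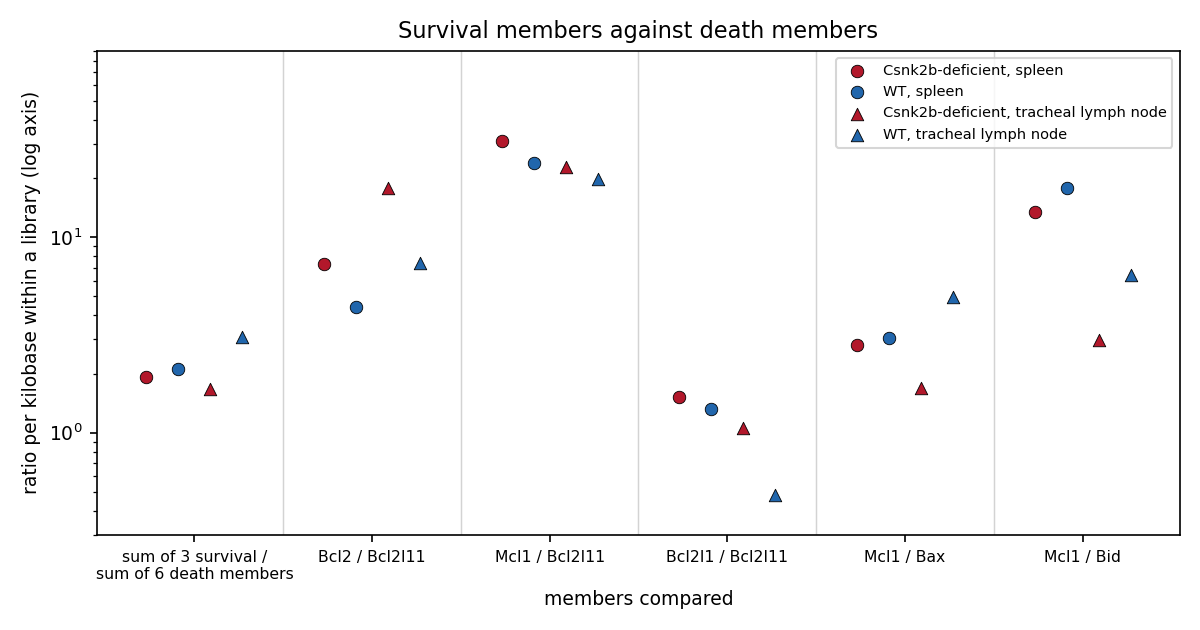
Ratio per kilobase (log axis) of the summed survival to the summed death members and of 5 pairs of single members, in each library, Csnk2b-deficient libraries in red and WT libraries in blue, circles for spleen and triangles for lymph node. In each tissue the Csnk2b-deficient library lies above the WT library for the 3 ratios over Bcl2l11 (Bcl2 over Bcl2l11 reached 17.9) and below it for the summed ratio, Mcl1 over Bax and Mcl1 over Bid.

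Differences between the lymph node and the spleen were larger than those between genotypes, with a median absolute log2 difference of 0.71 for tissue and 0.40 for genotype over the 9 members, and of 1.12 and 0.31 over all genes. The protocols name RNA and library kits for samples 1 and 2 and other kits for samples 3 and 4, and do not tie these numbers to libraries. If the kits followed tissue, tissue and kit cannot be told apart. If they followed genotype, genotype and kit cannot be told apart. For the tissue difference edgeR called 6 of 9 members at an adjusted p below 0.05, compared with 45.4% of all genes. Of these 2 were higher in the lymph node (23.3% of all genes) and 4 lower (22.2%). Bak1 and Bbc3, 2 of the 4 lower members, entered the test through their spleen reads and so had to differ. Of the other 7 members 4 were called, and nothing is read from the count of all 9. Bid was higher in the lymph node by 1.13 ± 0.28 on the log2 scale and Bcl2 by 0.67 ± 0.20 (SE, n = 2 per tissue; edgeR adjusted p = 0.00725 and 0.0166). Mcl1 was lower, with -0.71 ± 0.19, and Bcl2l1 was lower, with -1.34 ± 0.40 (SE, n = 2 per tissue; edgeR adjusted p = 0.00962 and 0.0167). The difference had the same sign in Csnk2b-deficient and in WT Tregs for these 4 genes, with 1.30 and 0.93 for Bid, 0.85 and 0.48 for Bcl2, -0.87 and -0.54 for Mcl1, and -0.96 and -1.69 for Bcl2l1. Bax had -0.68 ± 0.32, Bcl2l11 -0.35 ± 0.32 and Bad 0.056 ± 0.57, and these did not pass (edgeR adjusted p = 0.110, 0.394 and 0.945). For Bax the difference was -0.14 in Csnk2b-deficient and -1.23 in WT Tregs, and for Bad 0.62 in Csnk2b-deficient and -0.51 in WT Tregs.

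Bak1 and Bbc3 are described by their reads. In WT Tregs, where the lymph node library had 0 reads, Bak1 was at least 33.4-fold and Bbc3 at least 30.1-fold lower in the lymph node, by the limit of 3 reads. The Bak1 bound is uncertain, since 23.8% of its exon reads in WT spleen Tregs were uniquely placed. Ggnbp1, whose span holds Bak1, had 73 exon reads in Csnk2b-deficient and 137 in WT lymph node Tregs, 0 of them uniquely placed. The part of the library kit in these tissue differences was not tested. In Csnk2b-deficient Tregs Bak1 had 1 read in the lymph node, and the ratio of spleen to lymph node, which rests on that 1 read, was 170 (95% exact counting interval 30.3 to 6762). For Bbc3 that ratio was 23.5 (8.93 to 87.6). Bmf, another BH3-only gene, had 8 reads in Csnk2b-deficient and 0 in WT lymph node Tregs, and 41 reads in Csnk2b-deficient and 92 in WT spleen Tregs.

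Where in a gene the reads lay also differed between the tissues, and the part of the library kit in this was not tested. Of all reads counted to Bcl2l1, 84.1% in Csnk2b-deficient and 88.2% in WT lymph node Tregs lay outside its exons, while 17.4% in Csnk2b-deficient and 15.9% in WT spleen Tregs did. For Bcl2 the share was 45.0% in Csnk2b-deficient and 61.7% in WT lymph node Tregs, and 10.1% in Csnk2b-deficient and 12.1% in WT spleen Tregs. Bid had the opposite pattern, with 7.83% in Csnk2b-deficient and 5.77% in WT lymph node Tregs, and 43.0% in Csnk2b-deficient and 39.5% in WT spleen Tregs. Over all genes the share differed little, from 21.5% to 24.0% in the 4 libraries. Bcl2 reads outside exons were 1810 in Csnk2b-deficient and 2287 in WT lymph node Tregs, a ratio of 0.710 (95% exact counting interval 0.667 to 0.755), while the exon reads had a ratio of 1.40. The higher Bcl2 exon count in Csnk2b-deficient lymph node Tregs thus had no counterpart in the reads outside exons, and the joint Bcl2 value on whole-gene reads was -0.0079.

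**Figure D4:**
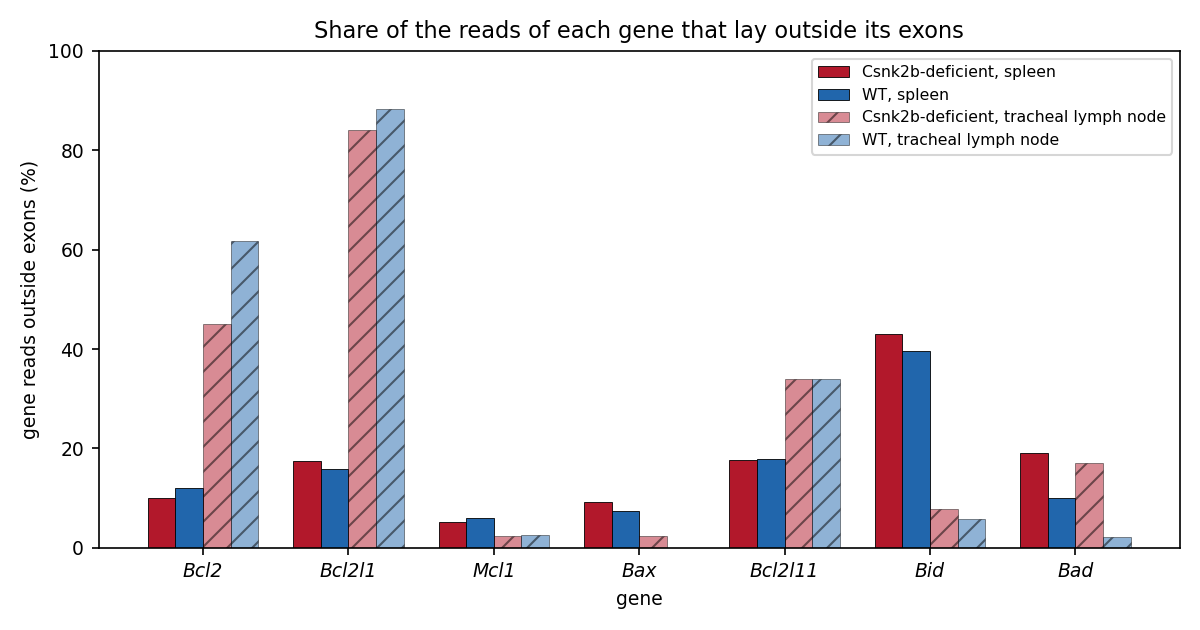
Share (%) of the reads of each gene that lay outside its exons, for the 7 members counted in both tissues; filled bars are spleen and hatched bars lymph node, Csnk2b-deficient in red and WT in blue. Bcl2l1 and Bcl2 had high shares in the lymph node (84.1% and 88.2%, and 45.0% and 61.7%, in Csnk2b-deficient and WT Tregs), and Bid in the spleen (43.0% and 39.5%).

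Of 17 other BCL2 family genes 10 were tested, and edgeR called 0 in either direction, with 1 at an unadjusted p below 0.05. That gene was Pmaip1, the BH3-only gene of NOXA, which binds MCL1. It had 32.0 CPM in Csnk2b-deficient and 16.7 CPM in WT spleen Tregs, and 22.4 CPM in Csnk2b-deficient and 10.8 CPM in WT lymph node Tregs (log2 fold change 0.99 ± 0.44, SE, n = 2 per genotype; edgeR adjusted p = 0.890). Bcl2a1b, a survival gene of the A1 cluster, had 53.6 CPM in Csnk2b-deficient and 32.7 CPM in WT spleen Tregs, and 210 CPM in Csnk2b-deficient and 175 CPM in WT lymph node Tregs. Its near-identical copies share reads, and 12.2% to 18.4% of its exon reads were uniquely placed, so its log2 fold change of 0.48 ± 0.24 is uncertain. Bcl2l15 had 17 reads in Csnk2b-deficient and 5 in WT spleen Tregs, and 51 in Csnk2b-deficient and 19 in WT lymph node Tregs, with a log2 fold change of 1.68 ± 1.08. Bcl2l13, Bcl2l12 and Bcl2l14 had -0.45 ± 0.33, -0.97 ± 0.88 and -1.33 ± 1.42. Hrk and Bcl2l10 had 0 exon reads in each library, where the limit of 3 reads is 0.380 to 0.733 CPM. The median log2 fold change of the 9 tested genes with reads in each library was -0.054.

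In the rest of the pathway edgeR called 0 genes in 6 lists that held 52 genes, all of them tested. Counts of genes with 1 direction in both pairs are to be read beside the 27.7% (higher) and 29.2% (lower) of all genes. Among 15 genes of the apoptosome and caspases 4 were higher and 5 lower in both pairs, and the median log2 fold change was -0.023. Casp9, the apoptosome caspase, had 22.1 CPM in Csnk2b-deficient and 22.2 CPM in WT spleen Tregs, and 25.9 CPM in Csnk2b-deficient and 6.35 CPM in WT lymph node Tregs (log2 fold change 0.95 ± 0.57). The WT lymph node value came from 26 exon reads. The Casp9 log2 fold change was 0.55 ± 0.60 on uniquely placed exon reads and 0.31 ± 0.42 on reads over the whole gene. The death receptor caspase gene Casp8 had 0.36 ± 0.22. For Casp9 and Casp8 the spleen pair was near equal (log2 ratios -0.0035 and 0.035) and the lymph node pair was not (1.97 and 0.68). Of 4 caspase inhibitors, Birc2 had 0.44 ± 0.21, Birc6 0.15 ± 0.19 and Xiap 0.14 ± 0.23. Among 9 death receptor genes 5 were higher and 0 lower in both pairs, with a median of 0.24. For 3 of the 5 the spleen pair was near equal, with log2 ratios of 0.0081 for Fadd, 0.018 for Tnfrsf10b and 0.052 for Fasl. In that list the caspase-8 inhibitor gene Cflar had 0.26 ± 0.20, the ligand gene Fasl 0.61 ± 0.62 and Tnfrsf10b 0.74 ± 0.95.

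Upstream of the family, Il7r and Foxo1 had the smallest unadjusted p of the lists. Il7r, the interleukin-7 receptor chain, had 396 CPM in Csnk2b-deficient and 243 CPM in WT spleen Tregs, and 525 CPM in Csnk2b-deficient and 199 CPM in WT lymph node Tregs. Its log2 fold change came to 1.05 ± 0.22 (SE, n = 2 per genotype; edgeR adjusted p = 0.200). Foxo1, a FOXO factor known to act on Bcl2l11 and Il7r, had 171 CPM in Csnk2b-deficient and 323 CPM in WT spleen Tregs, and 207 CPM in Csnk2b-deficient and 383 CPM in WT lymph node Tregs. Its log2 fold change came to -0.90 ± 0.20 (SE, n = 2 per genotype; edgeR adjusted p = 0.215), and its value in each Csnk2b-deficient library was below both WT libraries. DESeq2 called both genes (adjusted p = 0.00606 for Il7r and 0.0253 for Foxo1), as did limma-voom (0.00984 and 0.0251). Of 12 cytokine survival genes 4 were higher and 3 lower in both pairs, with Stat5b at -0.52 ± 0.24 and the survival kinase gene Pim1 at 0.64 ± 0.32. Of 8 transcription factors 0 were higher and 4 lower in both pairs, beside 27.7% and 29.2% of all genes, with Rel at -0.035 in the spleen pair, Foxo3 at a joint -0.36 ± 0.28 and Ddit3 at a joint -0.34 ± 0.35. Among enzymes that set MCL1 protein stability, the ubiquitin ligase gene Huwe1 had -0.41 ± 0.18, the deubiquitinase gene Usp9x -0.43 ± 0.23 and the ligase gene Fbxw7 1.44 ± 1.36, the last with 27 reads in Csnk2b-deficient and 2 in WT lymph node Tregs.

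**Figure D5:**
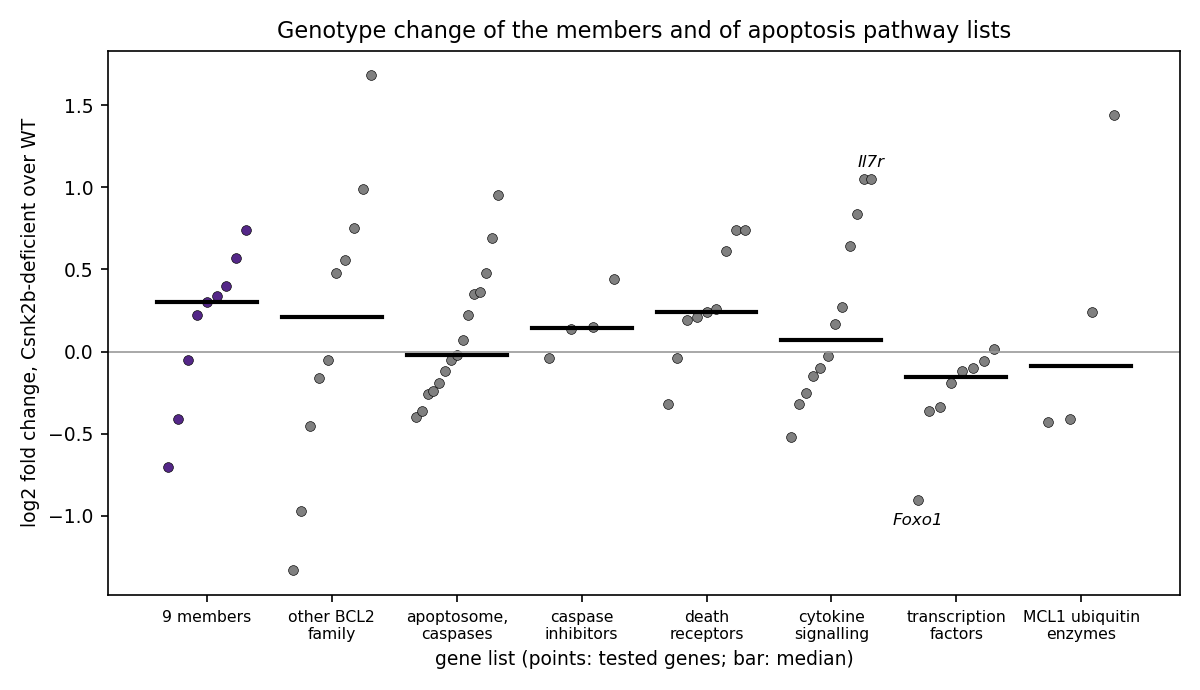
Log2 fold change, Csnk2b-deficient over WT, of the 9 members and of the tested genes of 7 other lists (1 point per gene, bar at the median). The list medians lay within 0.30 of 0, and Il7r (1.05) and Foxo1 (-0.90) are marked.

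Genes most like Bcl2, Bcl2l11 and Mcl1 over the 4 libraries were found by the root mean square distance of centred log2 CPM, among genes whose mean log2 CPM lay within 2 of the member. Nearest to Bcl2 were Gbp4, Srp54c and Cd274, at 0.0211 to 0.0301 on the log2 scale, of 2554 genes compared, and 44 genes lay within 0.1. Nearest to Bcl2l11 were Slc25a38, Pydc4 and Hivep3 at 0.0418 to 0.0645, of 7079 genes, and 7 lay within 0.1. Nearest to Mcl1 were Top2b, Cd5 and Etnk1 at 0.0396 to 0.053, of 1694 genes, and 14 lay within 0.1. The 4 libraries give 3 free differences, so such likeness is a description.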

How the data were processed

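Tregs were sorted by flow cytometry; a MiSeq was the sequencer, per the labels' protocols. These name Trizol and TruSeq for samples 1 and 2, and the RNeasy micro, SMARTer and Nextera XT kits for samples 3 and 4, without naming the libraries. CASAVA 1.8.2 and build mm9 are given in the submitters' processing notes, while no aligner or annotation is named there or in the labels. The deposited tables hold read counts per gene, per the file headers: exon, whole-gene and splice-junction reads, as total or uniquely placed reads. Total exon reads were used. Of 37583 features, 9551 without an exon length were left out. Whether counting used strand is not given. Reads outside exons are whole-gene minus exon reads. The authors' RPKM was replaced by CPM per kilobase of exon from the counts.

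Genes were tested with edgeR 4.0.16 (R 4.3.3): filterByExpr by genotype, TMM, robust quasi-likelihood fit on tissue plus genotype, Benjamini-Hochberg over 11113 genes, threshold 0.05. The replicate number names the tissue in the labels and so pairs the libraries, and the tissue term is the block (deviations correlated at 0.783 within a number). It leaves 1 residual degree of freedom. Each SE is the fitted log2 value divided by the root of its F statistic. Log2 ratios of a pair use a prior count of 2. Counting intervals are 95% exact binomial (SciPy 1.17.1) on effective library sizes. They leave out differences between mice and between libraries, since each tissue has 1 library per genotype. They also take reads as independent. Reads carry no molecular identifiers, so copies of 1 molecule cannot be told from separate molecules, and the intervals may be too narrow. Alternatives were other scalings, filters, tests (DESeq2 1.42.0, limma 3.58.1), count columns and omitted libraries. BH3 stretches were read from GENCODE M21 (GRCm38); expression coordinates are mm9. Named were the 9 members, Csnk2b, the 3 genes of smallest unadjusted p in each list (6 for other BCL2 family genes) and the 3 nearest genes of Bcl2, Bcl2l11 and Mcl1. The values of 1 gene that this rule names are not reported here. Bmf, Hrk, Bcl2l10, Foxp3, Il2ra, Ctla4, Tnfrsf18, Cd4, Ikzf2, Cd3e, Lyz2, Ncr1, Fadd and Rel were named after their values were seen. The members and lists were chosen with earlier results of these data known.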

Additional observations from a re-analysis of the deposited data

Results flagged for a closer look

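Of the members, 4 had opposite genotype log2 ratios (Csnk2b-deficient over WT) in the tissues. Each value compares 1 library with 1 library, and the difference between tissues was not tested, since it is the only residual degree of freedom of the fit. Bax had -0.13 for spleen and 0.96 for lymph node, where WT was the low library. Bcl2l1 had -0.40 for spleen and 0.33 for lymph node. Bad had -0.34 for spleen and 0.79 for lymph node, from 45 to 125 reads per library. Bbc3 had -0.10 for spleen and 1.79 for lymph node, the lymph node value from 4 reads in Csnk2b-deficient and 0 in WT lymph node Tregs, so it depends on the prior count.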

How the results depend on the processing

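All 9 members stayed uncalled under the 9 alternative fits on all 4 libraries and the 4 fits that left out 1 library. With those 9 fits the log2 fold change of Bcl2l11 stayed between -0.74 and -0.68 and that of Mcl1 between -0.44 and -0.37. The sign turned for Bcl2 on reads over the whole gene (-0.0079), and for Bbc3 with limma-voom (-0.016) and without the replicate block (-0.047). The spleen and the lymph node pair alone, with no test, gave -0.40 and 0.33 for Bcl2l1, -0.13 and 0.96 for Bax, -0.10 and 1.79 for Bbc3, -0.055 in the spleen for Birc6 and -0.002 in the spleen for Pim1. Without Csnk2b-deficient replicate 2 Bad had -0.076. Over all fits with a library or pair left out, the range was -0.94 to -0.46 for Bcl2l11, -0.89 to 0.034 for Mcl1, -0.11 to 0.70 for Bcl2, -0.78 to 0.93 for Bcl2l1, -0.17 to 1.06 for Bax, -5.70 to 9.52 for Bak1, -3.66 to 8.71 for Bbc3, -0.35 to 0.98 for Bid and -0.34 to 0.79 for Bad. Without the tissue term a missing library shifts tissue differences into the genotype value. Of the other genes, ranges that crossed 0 were -0.90 to 2.04 for Bcl2a1b, -2.67 to 0.37 for Bcl2l12, -2.77 to 0.29 for Bcl2l14, -0.0035 to 1.97 for Casp9, -0.32 to 0.99 for Casp8, -0.046 to 0.88 for Birc2, -0.67 to 1.10 for Birc6, -0.36 to 0.69 for Xiap, -0.007 to 0.55 for Cflar, -0.64 to 1.64 for Fasl, -0.36 to 2.22 for Tnfrsf10b, -2.32 to 1.12 for Stat5b, -2.00 to 3.63 for Pim1, -0.78 to 0.044 for Foxo3, -0.98 to 0.45 for Ddit3, -1.16 to 0.25 for Huwe1 and -0.077 to 3.39 for Fbxw7.

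Over all genes edgeR called 14 higher and 2 lower. Median-of-ratios factors called 4 and 0, upper-quartile factors 10 and 1, no filter 79 and 32, a filter at 5 CPM 10 and 1, the DESeq2 Wald test 38 and 16, limma-voom 39 and 21, uniquely placed reads 7 and 0, and the fit without the replicate block 0 and 0, with 29 at an unadjusted p below 0.05. Without single libraries the counts were 0 to 1 higher and 0 lower. In the lists, Il7r was called higher (1 gene) and Foxo1 lower (1 gene) with no filter, DESeq2 and limma-voom, and 0 genes in the other fits. The tissue difference (lymph node over spleen) was -0.14 in Csnk2b-deficient and -1.23 in WT Tregs for Bax, -6.03 in Csnk2b-deficient and -6.11 in WT Tregs for Bak1, -4.08 in Csnk2b-deficient Tregs for Bbc3, and -0.51 in WT Tregs for Bad, the reverse of its joint value of 0.056. The ratio of survival to death members on exon reads was 3.75 in Csnk2b-deficient and 3.88 in WT spleen, and 3.62 in Csnk2b-deficient and 4.77 in WT lymph node Tregs. On uniquely placed reads per kilobase it was 2.12 in Csnk2b-deficient and 2.25 in WT spleen, and 1.34 in Csnk2b-deficient and 2.83 in WT lymph node Tregs. With Mcl1 left out, on CPM per kb of total exon reads, it was 0.427 in Csnk2b-deficient and 0.409 in WT spleen Tregs. In the lymph node that ratio was 0.756 in Csnk2b-deficient and 0.877 in WT Tregs. Apart from the settings that show it, the cause of these shifts was not tested. In the lymph node, Bak1 and Bbc3 were at or near the limit of 3 reads, so a genotype difference there was not detectable at this depth.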
